A study of Mus musculus with 8 samples.

Results

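The genes described here are 10 transcripts that mature β cells, the insulin-secreting cells of the pancreatic islet, are known to keep at a low level and that most other tissues express. They were chosen by name, with earlier results of these data known. Each of the 10 had exactly 1 row among the 27534 genes of the deposited table. All 10 were among the 15442 genes that passed the filter on low counts. The islets came from C57BL/6J mice and spent 72 h in RPMI medium with 10% FBS, at either 20 mM glucose (high glucose, libraries high 1 to high 4 by replicate number) or 7.5 mM glucose (low glucose, libraries low 1 to low 4). RNA was sequenced in bulk, without separating cell types. The labels give no genotype, age, sex or number of mice and do not say whether libraries of a group came from separate animals, so p-values measure the spread between these libraries. By its title, the study is about IRE1α, which senses unfolded protein in the endoplasmic reticulum, and the early compensation of β cells. The comparison asks which transcripts differ after sustained high glucose.

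β cells sense glucose by oxidising it in mitochondria, and the resulting ATP closes potassium channels and triggers insulin release. Lactate dehydrogenase A, the monocarboxylate transporter MCT1 and the low-Km hexokinases would let pyruvate leave as lactate, let circulating lactate or pyruvate act as a secretion signal, or let glucose be phosphorylated at fasting concentrations, and their genes are called disallowed in β cells for that reason. Other members of the group are growth factor receptors, secreted factors and transcriptional regulators that are plentiful in fibroblasts, exocrine cells or non-neuronal tissues.

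The upstream sequences of Ldha, Slc16a1 and Oat are shown because Ldha and Oat were the members that passed the test below, and Slc16a1 encodes the transporter that works with lactate dehydrogenase. Each is the run of 250 bases before a RefSeq gene start (GRCm38.p6), read 5′ to 3′ on the gene's strand, with each CACGTG in capitals. This palindrome is the core E-box bound by basic helix-loop-helix factors such as MYC and USF. The windows are chr7:46845554-46845803 (plus strand) for the first of 2 listed Ldha starts, chr3:104638414-104638663 (plus strand) for Slc16a1 and chr7:132576399-132576648 (minus strand) for Oat.
Ldha: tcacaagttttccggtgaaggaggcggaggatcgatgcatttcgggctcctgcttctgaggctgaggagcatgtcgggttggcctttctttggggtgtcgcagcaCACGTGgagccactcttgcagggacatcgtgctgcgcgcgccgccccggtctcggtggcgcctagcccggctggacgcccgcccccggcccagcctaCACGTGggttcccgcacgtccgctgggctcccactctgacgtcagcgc
Slc16a1: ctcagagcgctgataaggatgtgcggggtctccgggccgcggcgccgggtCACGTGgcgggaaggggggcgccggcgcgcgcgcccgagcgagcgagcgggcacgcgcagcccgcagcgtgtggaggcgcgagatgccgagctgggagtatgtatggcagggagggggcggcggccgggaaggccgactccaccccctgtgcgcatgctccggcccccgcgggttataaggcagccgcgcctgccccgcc
Oat: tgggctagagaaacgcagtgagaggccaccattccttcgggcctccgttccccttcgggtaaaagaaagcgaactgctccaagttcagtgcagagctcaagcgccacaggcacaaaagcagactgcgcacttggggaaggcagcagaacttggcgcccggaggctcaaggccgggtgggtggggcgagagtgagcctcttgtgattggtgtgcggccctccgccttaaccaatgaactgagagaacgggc
The Ldha window shown held CACGTG 2 times, beginning 145 and 48 bases before the start, and the Slc16a1 window held it once, beginning 200 bases before. Of 32851 such windows in the RefSeq table, 6.02% held CACGTG at least once and 0.429% at least 2 times. The window of the other Ldha start, chr7:46846832-46847081, held neither CACGTG nor ACGTG. The 9 members in the table had 13 windows, of which these Ldha and Slc16a1 windows were the 2 with a CACGTG. The shorter ACGTG, which lies inside CACGTG and was searched on both strands, occurs in 16.6% of windows, TATAAA in 12.4% and GGGCGG in 32.7%. The Oat window held none of these 4 strings. A match of letters is a description and does not show that a factor binds there.

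Counts per library ran from 20516328 to 24905499 (high) and from 19543045 to 24949515 (low). The insulin genes Ins1 and Ins2, which define β cells, took between 17.3% and 21.7% of these in the high and between 17.2% and 22.7% in the low libraries. Of the 9 β-cell markers, Iapp rose (log2 fold change 0.70) and Mafa (-0.47), Slc2a2 (-0.52), Ucn3 (-0.79) and Slc30a8 (-0.29) fell, with adjusted p at most 0.0343 in edgeR, while Ins1, Ins2, Nkx6-1 and Pdx1 did not pass. Markers of other cells were present as well. The 11 acinar genes mostly encode digestive enzymes of the exocrine pancreas, and include the transcription factor gene Ptf1a and Amy2b, annotated as a pseudogene. They summed to between 0.288% and 1.63% of counts in the high and between 0.117% and 0.995% in the low libraries. None of the 10 tested passed the test between groups. The 10 fibroblast and stellate genes summed to 0.0172% to 0.116% and 0.0146% to 0.0336%, and none of 10 passed. No marker of either list was at 0 in all 8 libraries.

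Per kilobase of transcript, the 10 genes covered a wide range of levels. In low glucose the authors' FPKM averaged 7.76 ± 1.01 for Ldha (SD, n = 4 here and below), 3.35 ± 1.17 for Oat, 3.13 ± 0.961 for Lmo4, 1.56 ± 0.495 for Acot7, 1.01 ± 0.144 for Hk1 and 0.971 ± 0.296 for Cxcl12. It averaged 0.723 ± 0.465 for Igfbp4, 0.462 ± 0.131 for Rest, 0.377 ± 0.121 for Slc16a1 and 0.0913 ± 0.0577 for Pdgfra. Ldha stood clear of Oat and Slc16a1 clear of Pdgfra, whereas the ranges of every other pair of neighbours in this order overlapped. In high glucose the order was the same except that Cxcl12 stood above Hk1, and there Ldha was clear of Oat and Lmo4 of Acot7. Ldha lay at percentile 79.3 of the tested genes by FPKM over all libraries, Oat at percentile 55 and Pdgfra at percentile 2.59.

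After high glucose, 2 of the 10 genes rose, Ldha and Oat, none fell and 8 did not pass edgeR's quasi-likelihood test at an adjusted p of 0.05. Over all tested genes, 25% passed in either direction, 13.1% of them higher and 11.9% lower in high glucose as shares of genes tested. With no adjustment, 2 members had a p under 0.05, both higher, against 36% of all tested genes in either direction. DESeq2 and limma-voom also called 2 higher and none lower. For the members, the DESeq2 fit returned the log2 fold changes that the authors deposited, so it is not separate from their test. All 10 fitted log2 fold changes were positive, with a median of 0.56, where 48.5% of all tested genes had a positive value and the median was -0.01. The members were chosen with earlier results of these data known, and several shared high 4 as their highest library. The 10 signs therefore do not count as independent, and 8 of the 95% intervals include 0. Without high 1, 2 or 4 or low 1, 3 or 4 the count of members called was 1. It was also 1 with both libraries numbered 1 or both numbered 4 left out.

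**Figure D1:**
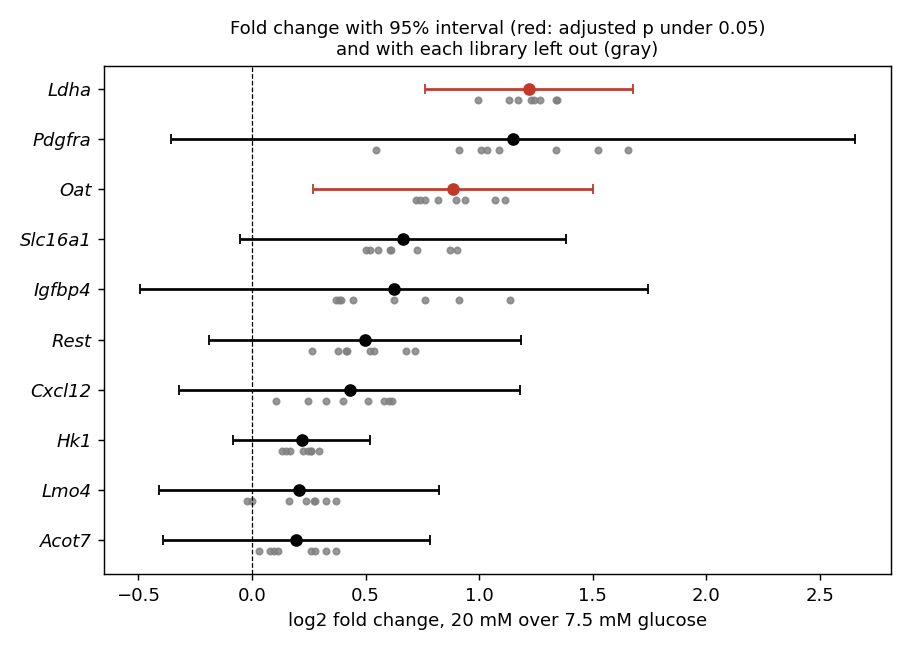
Log2 fold change of each gene (vertical axis), 20 mM over 7.5 mM glucose (horizontal axis), from edgeR, with its 95% interval and, in gray, the value with each of the 8 libraries left out in turn. The intervals of Ldha and Oat, in red, lie above 0, and those of the other 8 genes include 0.

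Ldha encodes the lactate dehydrogenase subunit that favours conversion of pyruvate to lactate (ENSMUSG00000063229, GRCm38 chromosome 7, 46841475 to 46855627). Its level was 45.0, 67.6, 44.8 and 87.4 CPM (counts scaled to the TMM-adjusted library size) in high 1 to high 4, and 21.6, 26.8, 27.9 and 29.0 CPM in the low libraries. Every high glucose library was above every low glucose library, and high 2 and high 4 were the highest. Of all tested genes, 27.3% had groups that did not overlap. The fitted log2 fold change was 1.22 ± 0.21 (SE), a 2.33-fold rise with an adjusted p of 0.00175 in edgeR. Across same-number pairs the ratio ran from 1.61 to 3.01. Without both libraries numbered 4 the log2 fold change was 1.05 (adjusted p = 0.0071), and without both numbered 1 it was 1.25 (adjusted p = 0.0075). A processed copy, Ldha-ps2, had 17 counts over the 8 libraries, and reads shared with such copies could have been split or dropped.

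The other common subunit, encoded by Ldhb, did not pass the test. Ldhb averaged 10.5 ± 1.11 (high) and 11.8 ± 0.679 CPM (low). Its log2 fold change was -0.17 ± 0.11 (SE, adjusted p = 0.299 in edgeR). The FPKM ratio of Ldha to Ldhb was 2.01, 2.64, 2.15 and 4.25 in high glucose and 0.834, 1.02, 1.17 and 1.23 in low glucose. The transcripts were therefore at similar levels per length in low glucose, and Ldha was the higher in each high glucose library. On the log2 scale, with 0.1 added to each FPKM, the ratio differed by 1.32 between groups (1.40 ± 0.488 against 0.0752 ± 0.252). An exact two-sided permutation test gave p = 0.0286, the smallest that 4 against 4 libraries allow, 0.0429 adjusted over the 3 ratios tested and 0.0571 adjusted over the 2 given here. Without high 2 or 4 the value adjusted over 3 was 0.0857, with differences of 1.32 and 1.10.

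Slc16a1 encodes the transporter MCT1 (ENSMUSG00000032902, chromosome 3, 104638668 to 104658462), which moves lactate and pyruvate across the plasma membrane. It was at 3.46, 2.34, 1.46 and 3.56 CPM in the high and 1.52, 1.5, 1.33 and 2.5 CPM in the low libraries, from 28 to 88 reads per library. The high glucose library was the higher in 4 of 4 same-number pairs, but the groups overlapped. The log2 fold change was 0.67 ± 0.32 (SE), with a 95% interval of -0.05 to 1.38 and adjusted p = 0.168 in edgeR. Slc16a3, which encodes the lactate exporter MCT4, rose 4.69-fold (adjusted p = 0.00325 in edgeR). Its values were 5.73, 17.7, 8.82 and 15 CPM in high glucose and 1.44, 1.77, 4.59 and 2.30 CPM in the low libraries, so that no libraries overlapped. Bsg, whose product basigin carries MCT1 and MCT4 to the membrane, rose 1.57-fold from 505 ± 84.1 to 793 ± 114 CPM.

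Of the 10 tested genes in a list of lactate, pyruvate and monocarboxylate handling, 3 rose and 3 fell, with a median log2 fold change of 0.15. Besides Slc16a3 and Bsg, Slc16a6, another member of the monocarboxylate transporter family, rose 1.69-fold. Mpc1, a subunit of the carrier that brings pyruvate into mitochondria, fell 1.54-fold (adjusted p = 0.00419 in edgeR), and Emb, which encodes the basigin relative embigin, fell 1.32-fold. Mpc2, the other subunit gene of that carrier, was at 43.1 ± 3.00 (high) and 43.1 ± 8.62 CPM (low) and did not pass (adjusted p = 0.995 in edgeR). Ldhd, the D-lactate dehydrogenase gene, fell 1.25-fold, and its adjusted p was up to 0.0816 without high 1, 3 or 4 or low 1 or 4.

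Hk1 encodes hexokinase 1, a low-Km enzyme that phosphorylates glucose at fasting concentrations (ENSMUSG00000037012, chromosome 10, 62268855 to 62379908). Its values were 9.58, 10.1, 9.33 and 12 CPM in the high and 7.89, 10.2, 7.67 and 9.55 CPM in the low libraries, and the groups overlapped. In edgeR its log2 fold change was 0.22 ± 0.14 (SE), with a 95% interval of -0.08 to 0.52 and adjusted p = 0.281. With 1 library left out it ran from 0.13 (without high 4) to 0.29 (without low 2). Hk2, the inducible low-Km isozyme gene, was at 2.29 ± 0.297 and 1.32 ± 0.301 CPM, a 1.74-fold rise with adjusted p = 0.0332. It did not pass (adjusted p up to 0.101) without any 1 of the high glucose libraries or low 1 or 3. An antisense transcript, Hk1os, overlaps Hk1 but had 18 counts in all libraries together.

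**Figure D2:**
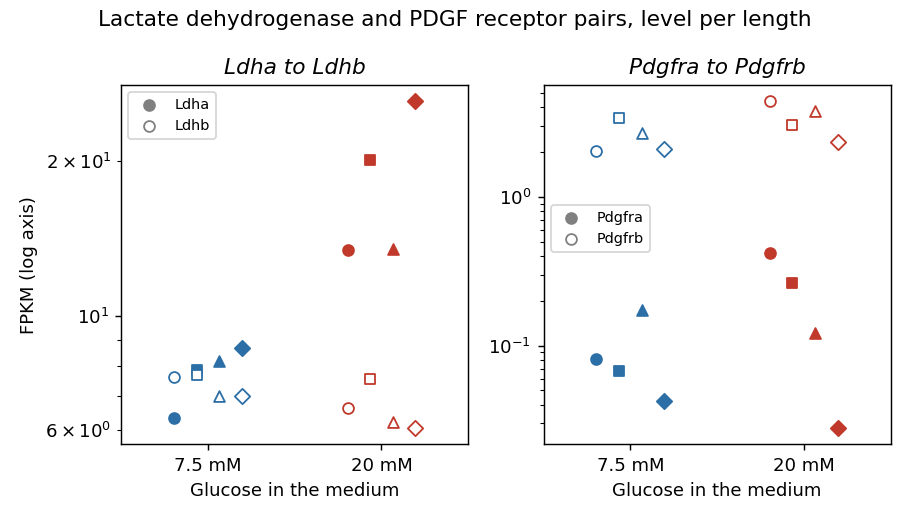
FPKM (log axis) of Ldha and Ldhb and of Pdgfra and Pdgfrb in each library, by glucose concentration, with filled points for the first gene and open points for the second. Circles, squares, triangles and diamonds are replicates 1 to 4. Ldha lies near Ldhb in low glucose and above it in high glucose, and Pdgfra lies below Pdgfrb in all 8 libraries.

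Oat encodes ornithine aminotransferase, the mitochondrial enzyme that interconverts ornithine and the precursor of proline and glutamate (ENSMUSG00000030934, chromosome 7, 132557478 to 132576398). It was at 19.5, 16.8, 8.77 and 14.5 CPM in the high and 6.07, 11.7, 5.63 and 8.98 CPM in the low libraries. High 3 lay below low 2 and 4, so the groups overlapped, although the high library was the higher in each of 4 same-number pairs. The fitted log2 fold change was 0.88 ± 0.28 (SE), a 1.85-fold rise with adjusted p = 0.0403 in edgeR. The adjusted p was 0.00183 with the replicate number as a block, 0.0407 in limma-voom and 0.00536 in DESeq2. In edgeR refits without the replicate block, the call was lost on leaving out any 1 of 6 libraries. Adjusted p values were 0.117, 0.0929 and 0.0732 without high 1, 2 and 4. They were 0.112, 0.105 and 0.0695 without low 1, 3 and 4. Also without the block, the adjusted p was 0.247 without both libraries numbered 1 and 0.117 without both numbered 4. The Oat interval overlaps that of Fgfr2 on the same strand, which had 225 counts over all libraries.

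The related list of ornithine, proline and polyamine genes, not all of which encode enzymes, held calls in both directions. Of 15 tested genes of ornithine, proline and polyamine metabolism, 6 rose and 2 fell, with a median log2 fold change of 0.27, and the replicate block gave 8 higher and 2 lower. The count of lower genes was 0 without high 4 or low 3 and 1 without high 1, high 2, high 3, low 1 or low 4. Pycr1, the last step of proline synthesis in mitochondria, rose 2.31-fold from 40.8 ± 1.68 to 94.2 ± 12 CPM. Srm, the spermidine synthase gene, rose 2.02-fold and Aldh18a1, which makes the shared proline and ornithine precursor, 1.45-fold. Odc1, which competes with ornithine aminotransferase for ornithine and starts polyamine synthesis, rose 1.63-fold from 126 ± 11.2 to 205 ± 21.2 CPM. In edgeR the largest adjusted p among Pycr1, Srm, Aldh18a1 and Odc1 was 0.000428, that of Odc1. Aldh4a1, of proline breakdown, fell 1.39-fold (adjusted p up to 0.074 without high 1 or 4 or low 3). Amd1, another polyamine gene, fell 1.15-fold with adjusted p = 0.0476, a call lost without any 1 of 6 libraries (high 2, 3 and 4, low 1, 3 and 4), with adjusted p up to 0.138.

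Acot7 encodes a cytosolic acyl-CoA thioesterase that is abundant in brain and hydrolyses long-chain acyl-CoA (ENSMUSG00000028937, chromosome 4, 152178134 to 152271855). It was at 4.62, 3.33, 2.78 and 4.77 CPM in the high and 2.84, 3.96, 2.23 and 4.56 CPM in the low libraries, and 3 of 4 pairs were higher in high glucose. The log2 fold change of 0.20 ± 0.26 (SE) had a 95% interval of -0.39 to 0.78 and adjusted p = 0.639. With 1 library left out it ran from 0.03 (without low 3) to 0.37 (without low 4), and it was 0.08 without high 4, 0.10 without high 1, 0.12 without low 1 and 0.33 without high 3. Among the other 8 tested thioesterases of the family, Acot4, a peroxisomal enzyme gene, rose 1.89-fold (adjusted p = 0.00237). Acot9 rose 1.64-fold and Acot13 fell 1.47-fold, and each had an adjusted p above 0.05, up to 0.0617 and 0.0583, without any 1 of 4 libraries. For Acot9 these were high 1 and 4 and low 1 and 3, and for Acot13 high 1, 3 and 4 and low 4.

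**Figure D3:**
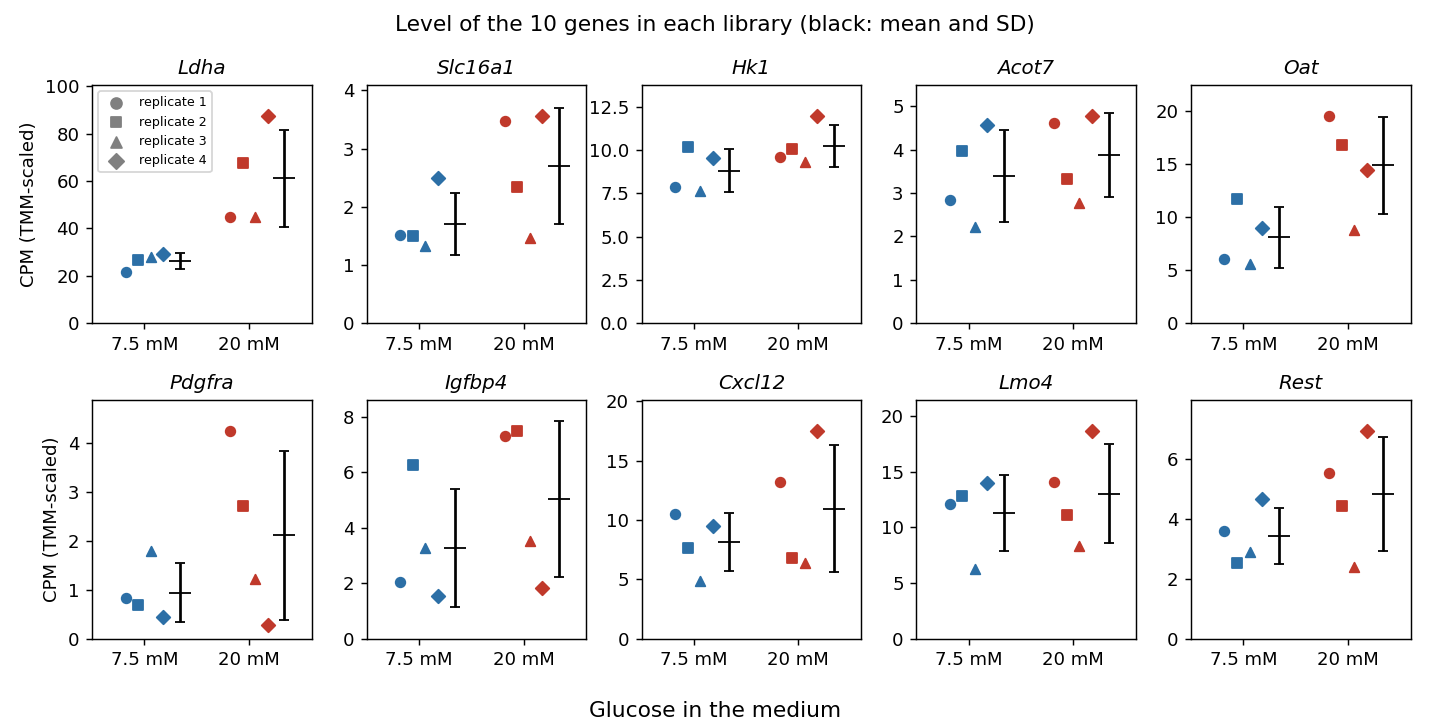
CPM of each of the 10 genes (vertical axes, from 0) in the 4 libraries at 7.5 mM and the 4 at 20 mM glucose, with symbols for replicate numbers and the mean ± SD in black. The groups are apart for Ldha, from 21.6 to 29.0 against 44.8 to 87.4 CPM, and overlap for the other 9.

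Pdgfra encodes the PDGF receptor α, a receptor tyrosine kinase of mesenchymal cells (ENSMUSG00000029231, chromosome 5, 75152292 to 75198215). It had the fewest reads of the 10 genes, from 7 to 88 per library. Its values were 4.23, 2.70, 1.23 and 0.283 CPM in the high and 0.834, 0.696, 1.80 and 0.432 CPM in the low libraries, so that high glucose held both the highest and the lowest library. The log2 fold change was 1.15 ± 0.68 (SE), with a 95% interval of -0.36 to 2.65 and adjusted p = 0.256 in edgeR, and 2 of 4 pairs were higher in high glucose. Without high 1 the log2 fold change was 0.54, which was the only one of the 8 removals to move it by over 1.5 times. That library also had the highest sum of fibroblast and stellate markers, at 0.116% of counts against 0.0319%, 0.0305% and 0.0172% in the other high glucose libraries. The low glucose libraries were at 0.0146%, 0.0336%, 0.0305% and 0.0155%. The part of these markers in the Pdgfra values was not tested. In bulk RNA, fewer cells of a type and less RNA per cell cannot be told apart.

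Pdgfrb, the receptor β gene of pericytes and stellate cells, was at 18.7 ± 4.93 and 14.3 ± 3.61 CPM (adjusted p = 0.218 in edgeR). The log2 FPKM ratio of Pdgfra to Pdgfrb differed by 0.15 between groups, with an exact permutation p of 0.657, and by -0.16 when 1 rather than 0.1 was added to each FPKM. Of the 6 tested genes for PDGF ligands and other receptors, none passed in edgeR, DESeq2 or limma-voom, and none had an unadjusted edgeR p under 0.05.

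Igfbp4 encodes a secreted protein that binds insulin-like growth factors and restrains their action (ENSMUSG00000017493, chromosome 11, 99041244 to 99054392). It was at 7.31, 7.48, 3.54 and 1.82 CPM in the high and 2.05, 6.27, 3.27 and 1.54 CPM in the low libraries. The libraries numbered 4 were the lowest of each group, and each of 4 pairs was higher in high glucose, by 3.57-fold for number 1 and by 1.08- to 1.19-fold for the others. In edgeR its log2 fold change was 0.62 ± 0.50 (SE), with a 95% interval of -0.49 to 1.74 and adjusted p = 0.409. It was 0.37 without high 2, 0.38 without high 1, 0.39 without low 4 and 1.13 without low 2. With both libraries numbered 1 left out it was 0.21.

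Among 11 other tested genes of the IGF system, 3 rose and none fell, with a median of 0.38. Pappa2, which encodes a protease that cleaves IGF-binding proteins other than IGFBP4, rose 4.73-fold from 221 ± 44.4 to 1045 ± 175 CPM, with adjusted p = 1.06e-05 in edgeR. Pappa, the gene of the related protease that cleaves IGFBP4, was at 1.47 ± 1.29 and 0.804 ± 0.131 CPM and did not pass (adjusted p = 0.259). Stc1, a stanniocalcin gene whose product inhibits this protease family, rose 2.19-fold and Igfbp3, another binding protein gene, 1.72-fold. Both had adjusted p values above 0.05 without 4 of the libraries in turn, up to 0.0599 for Stc1 (high 2 and 3, low 3 and 4) and 0.0891 for Igfbp3 (high 1, low 1, 3 and 4). Igf1r, which encodes the IGF1 receptor, averaged 251 ± 15.4 and 193 ± 38.2 CPM (adjusted p = 0.0667), and passed with the replicate block (adjusted p = 0.00794). With that block 6 genes of the list rose, and 5779 genes over all were called, against 3854 in the main fit. In the other direction, Igf2 averaged 0.251 ± 0.175 (high) and 0.667 ± 0.136 CPM (low), 2.66-fold lower in high glucose. Its groups did not overlap, but its level was low and it did not pass (adjusted p = 0.06 in edgeR). Limma-voom, library size alone and the set without high 2 each called 1 gene of the list lower.

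Cxcl12 encodes the chemokine SDF-1, made by stromal cells (ENSMUSG00000061353, chromosome 6, 117168535 to 117181367). It was at 13.2, 6.76, 6.41 and 17.5 CPM in the high and 10.5, 7.66, 4.88 and 9.51 CPM in the low libraries, and libraries numbered 1 and 4 were the highest of both groups. The fitted log2 fold change was 0.43 ± 0.34 (SE), with a 95% interval of -0.32 to 1.18 and adjusted p = 0.396. It was 0.11 without high 4, 0.24 without low 3, 0.60 without high 2 and 0.62 without high 3. Its receptor gene Cxcr4 was at 3.40 ± 0.623 and 3.33 ± 0.439 CPM (adjusted p = 0.928), and the scavenging receptor gene Ackr3 at 0.738 ± 0.493 and 0.518 ± 0.116 CPM (adjusted p = 0.468). Dpp4, whose protease product truncates CXCL12, fell 1.18-fold with adjusted p = 0.021 in edgeR. That call was lost, with adjusted p up to 0.0645, without high 1 or 4 or low 1, 3 or 4.

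Lmo4 encodes a LIM-only adaptor that binds LDB1 without contacting DNA (ENSMUSG00000028266, chromosome 3, 144188530 to 144205220). It was at 14.1, 11.1, 8.30 and 18.6 CPM in the high and 12.1, 12.9, 6.30 and 14.0 CPM in the low libraries. The libraries numbered 4 were the highest and those numbered 3 the lowest of each group. The log2 fold change was 0.21 ± 0.28 (SE), with a 95% interval of -0.41 to 0.82 and adjusted p = 0.636, and it was -0.02 without high 4, 0.0021 without low 3, 0.32 without low 4 and 0.37 without high 3. Ldb1, the partner through which LIM proteins and the β-cell factor ISL1 act, fell 1.21-fold, and Isl1 fell 1.23-fold from 159 ± 15.1 to 129 ± 9.39 CPM. The adjusted p of Ldb1 (0.0227) reached 0.0716 at most without high 3 or 4 or low 1. That of Isl1 (0.0287) reached 0.0867 at most without high 1, 3 or 4 or low 1. Lmo1, a related LIM-only gene, rose 1.64-fold from 7.74 ± 1.95 to 12.7 ± 2.15 CPM, a call lost without high 2 or 3 or low 1 (adjusted p up to 0.0646).

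Rest encodes the repressor that keeps neuronal genes silent in non-neuronal cells and that β cells, like neurons, largely lack (ENSMUSG00000029249, chromosome 5, 77265491 to 77286432). It was at 5.53, 4.42, 2.40 and 6.91 CPM in the high and 3.60, 2.52, 2.89 and 4.66 CPM in the low libraries, and 3 of 4 pairs were higher in high glucose. In edgeR its log2 fold change was 0.50 ± 0.31 (SE), with a 95% interval of -0.19 to 1.18 and adjusted p = 0.282. With 1 library left out it ran from 0.27 (without high 4) to 0.72 (without high 3). Of 10 corepressor genes, none rose and 3 fell, with a median of -0.20. Sin3a fell 1.21-fold, Ehmt2, a histone methyltransferase gene, 1.19-fold and Rcor2 1.52-fold. The Ehmt2 call was lost without high 1, 2 or 4 or low 1 or 3 (adjusted p up to 0.0718), and the Rcor2 call without high 1 or 3 or low 3 or 4 (up to 0.0917). Rcor1, the main CoREST gene, was at 52.6 ± 4.29 and 52.0 ± 3.69 CPM. The replicate block gave 6 lower corepressor genes, library size alone 5 and the set without low 2 also 5. Over all genes these settings called 5779, 4238 and 5132 in either direction, against 3854 in the main fit. The sets without high 1, without low 3 or without both libraries numbered 1 gave 1. Over all genes they called 3030, 3018 and 2180. No corepressor gene was called higher by DESeq2 or limma-voom, and with both libraries numbered 4 left out none fell.

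Neuronal genes that carry known REST sites moved both ways. Of 23 tested, 5 rose and 3 fell, with a median of -0.05. Vgf, a granin, rose 6.04-fold, Syp, the synaptophysin gene, 1.74-fold and Tubb3, a neuronal tubulin gene, 2.05-fold. Grin1, an NMDA receptor subunit gene, fell 1.63-fold, and Gjd2, which encodes the gap junction protein connexin 36 that couples β cells, fell 1.41-fold from 373 ± 16.2 to 265 ± 25.9 CPM. The replicate block gave 9 higher and 4 lower, and called 5779 genes over all, against 3854 in the main fit.

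The members fell into sets by the libraries in which they were high. Slc16a1, Hk1, Acot7, Cxcl12, Lmo4 and Rest had their highest value in high 4, as did Ldha, and the sum of acinar markers was also highest there. That sum was 0.868%, 0.288%, 0.306% and 1.63% of counts in high 1 to 4 and 0.722%, 0.273%, 0.117% and 0.995% in low glucose. Low 3, which had the lowest acinar sum, was also the lowest library for Slc16a1, Hk1, Acot7, Oat, Cxcl12 and Lmo4. Within low glucose, low 4 was the highest library for Lmo4, Rest, Acot7 and Slc16a1, low 1 for Cxcl12 and low 2 for Hk1, where the acinar sum was 0.273%. Pdgfra and Igfbp4 were instead at or near their lowest in the libraries numbered 4 and high in high 1 and 2. The part of acinar and stromal cells in these values was not tested.

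**Figure D4:**
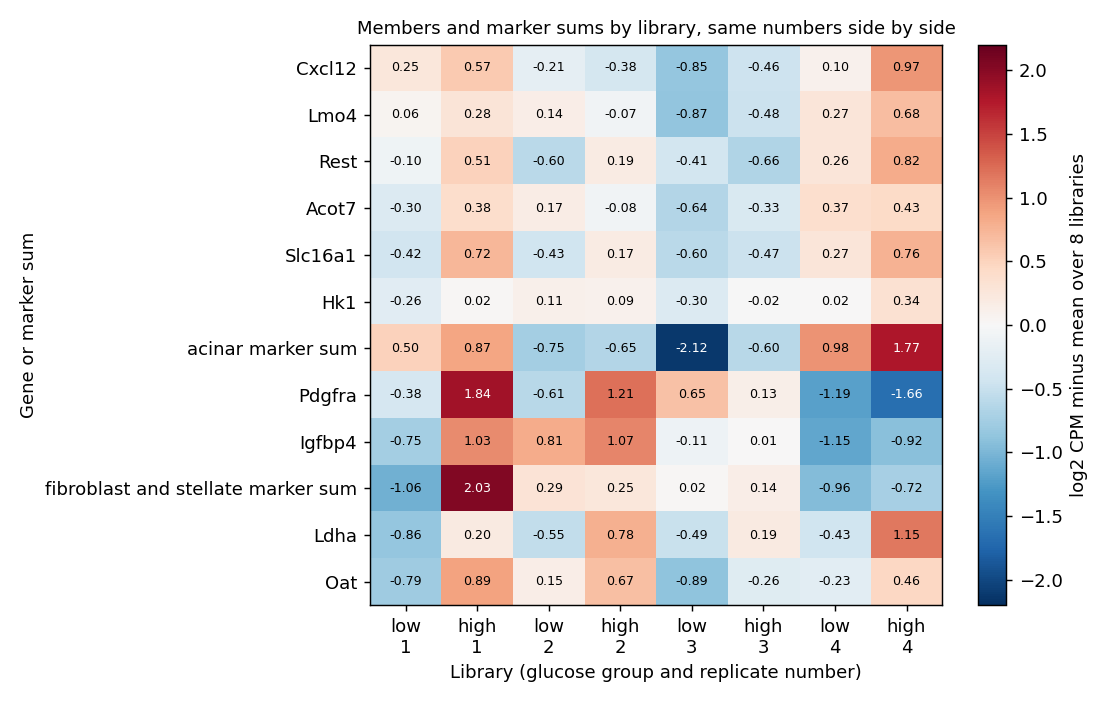
Deviation of log2(CPM + 0.1) from its mean over the 8 libraries, printed in each cell, for the 10 genes and for the summed acinar and fibroblast and stellate markers (rows), with the low and high glucose libraries of each replicate number side by side (columns). Cxcl12, Lmo4, Rest, Acot7, Slc16a1 and Hk1 are highest in high 4 together with the acinar sum, while Pdgfra is lowest there.

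Profiles across libraries were compared with those of 10538 protein-coding genes at 5 CPM or more. The profiles nearest to Ldha were those of the glycolytic enzyme genes Pgk1 (root mean square difference 0.23 on the log2 scale over 8 libraries) and Eno1 (0.25), which were 2.35-fold and 2.26-fold higher in high glucose. Those nearest to Oat were the tubulin genes Tubb5 and Tuba1c, at 0.23 and 0.24. The profiles include the difference between groups, so a like fold change in these genes follows from the way they were picked. Among 21 tested genes of a further list of transcripts kept low in β cells, 2 rose, Slc16a3 and Hk2, and 1 fell, Gas6, a ligand of TAM receptors (1.46-fold). Slc16a3 and Hk2 were already described above, so in the main fit this list added no further rise. Gas6 had an adjusted p of up to 0.063 without high 2, 3 or 4 or low 1. The median of that list was 0.37, and the replicate block gave 6 higher and 1 lower. That block called 5779 genes over all, against 3854 in the main fit.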

How the data were processed

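Per the submitters' processing notes, STAR 2.5, HTSeq 2 and DESeq2 were used with build mm10 (GRCm38); the sources used here do not give the strand setting, annotation release or filters. Per the file headers, the authors deposited whole-number read counts per gene, a normalised signal (each count over its library's size factor), FPKM, and their own log2 fold change and p-value. Counts and FPKM were used here. The test on counts was that of edgeR 4.0.16 (R 4.3.3; TMM scaling, filterByExpr with minimum count 10 and minimum total 15, group as the only term, Benjamini-Hochberg adjustment over 15442 genes). CPM are counts over the TMM-scaled library size, 3 counts corresponding to 0.114 to 0.161 CPM. Fold changes are high over low glucose, and the SE is the log2 fold change over the root of its F statistic. The procedure was also run on simulated counts drawn with no effect shared by same-number libraries, so that run does not cover such pairing. Alternatives used DESeq2 1.42.0, limma 3.58.1, other scalings and filters, a replicate block and left-out libraries. Deviations from the group means correlated at 0.262, 0.659, 0.635 and 0.685 in same-number pairs over 10820 genes, so the numbers were taken to pair libraries, although low 1 correlated slightly more with high 4 (0.29). Of the fits on counts, only the replicate block uses this pairing. The SE, intervals and p-values of the main fit and of the fits with left-out libraries therefore leave it out. No 2 libraries were copies. Members and lists were chosen with earlier results of these data known. All members and 12 direct partners were to be named whatever their result (1 partner and 1 of the 3 ratios tested are not reported here), and from each related list up to 3 passing genes, by smallest adjusted p, plus up to 2 in the opposite direction. Odc1, Emb, Slc16a6, Ldhd and Pappa were named after their values were seen. Promoter windows are from RefSeq (GRCm38.p6), found for 9 of 10 members.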

Additional observations from a re-analysis of the deposited data

Results flagged for a closer look

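Among the 44 sets of 4 libraries examined for members and direct partners, 2 held a library far from the other 3, where chance gives about 1 in 20. Slc16a1 in low 4 was at 2.5 CPM, against 1.33 to 1.52 CPM in the other low glucose libraries. Igf1r in low 2 was at 137 CPM, against 205 to 217 CPM in the others.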

How the results depend on the processing

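Ldha was called higher under each of the 17 other settings run (log2 fold change 1.00 to 1.34, adjusted p at most 0.00773), and Oat under 9 of them. The count of members called was 1 or 2 with 1 library left out, and 1 with both libraries numbered 1 or both numbered 4 left out, settings chosen after seeing the data; the count over all genes was then 2180 and 2284, against 3854, and 3015 to 5132 with 1 library left out. With the replicate block 5779 genes and 2 members were called, and the block changed no call of a member. Among members not called, the smallest adjusted p values with the block were 0.0627 (Slc16a1), 0.0775 (Cxcl12), 0.0944 (Igfbp4) and 0.0977 (Rest). In the main edgeR fit these were 0.168, 0.396, 0.409 and 0.282. The SE of Ldha was 0.116 with the block and 0.207 in the main fit. With library size alone as scaling 37.8% of called genes were higher, against 52.5%. Lmo4 ran from -0.021 (without high 4) to 0.37 with 1 library left out, and no other member changed direction. The ratio differences ran from 1.10 to 1.46 (Ldha to Ldhb) and -0.038 to 0.36 (Pdgfra to Pdgfrb) with 1 library left out, and the last was below 0 without high 1 (-0.022), high 2 (-0.030) or low 2, and -0.16 with a pseudocount of 1. A sign-flip test within replicate pairs, whose smallest p is 0.125, gave 0.125 and 0.75. Depth limits Pdgfra and Slc16a1 most, with as few as 7 and 28 reads in a library.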
